A study of Mus musculus with 2 samples.

Results

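Knockout-empty windows are the autosomal 100 bp windows with 1 or 2 CpGs that held no read in the Kaiso knockout library and at least 10 counts in the wildtype library. They numbered 34053 of the 2537435 windows of the deposited table, and covered 3405 kb on chromosomes 1 to 19. DNA fragments carrying methylated CpGs had been captured from mouse testis with the methyl-binding domain of MBD2 and sequenced, in 1 library per genotype. One library came from testis labelled Kaiso KO, from sterile male offspring of generation 3 on the C57BL/6 background, and the other from wildtype C57BL/6 testis. The free-text description of the knockout sample also calls its testis wildtype, so every knockout value rests on the genotype label. The deleted part of the allele, the age of the mice and the number of animals behind each library were not given in the sources used here. The knockout library held 98549116 reads and the wildtype library 87710791. The windows were chosen by the read counts of both libraries, so their emptiness and their level are a description with no test, and 1 library per genotype gives no replicate check.

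In mammalian DNA most CpGs stand alone in CpG-poor sequence and carry methyl groups, whereas dense CpG islands at gene starts are mostly free of them. A methyl-binding domain holds a fragment more tightly the more methylated CpGs it carries, so a fragment with a single CpG is captured weakly. Kaiso, the protein of the X-linked gene Zbtb33, is a zinc finger protein that binds methylated CpG pairs and an unmethylated sequence, TCCTGCNA, and is known as a repressor of transcription. In these bulk samples captured DNA cannot be told apart by cell type, and fewer cells with methylated DNA look like less methylation per cell.

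The targeted gene was read first. Zbtb33, on chromosome X from 38189793 to 38197046 (mm10), had 16 listed windows with 83 knockout and 303 wildtype counts. Of these, 5 met the same count and CpG rule and formed 1 unbroken run. The gene lies on X and so outside the windows described here, and captured DNA is only an indirect check of a genotype.

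Windows that lay wholly within the promoters of protein-coding genes are shown to make the sparse CpGs visible, with each CpG in capitals and the other bases in lower case. The first 6 are the knockout-empty windows with the highest wildtype counts among those that lie wholly in such a promoter and whose sequence holds the deposited number of CpGs, each from a different gene, with predicted genes left out. Sequences are from RefSeq on GRCm38.p6, the assembly also called mm10, and run 5′ to 3′ on the strand of the gene.

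Mt4: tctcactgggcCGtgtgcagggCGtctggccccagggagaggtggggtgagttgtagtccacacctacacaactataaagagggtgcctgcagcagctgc
Rgs19: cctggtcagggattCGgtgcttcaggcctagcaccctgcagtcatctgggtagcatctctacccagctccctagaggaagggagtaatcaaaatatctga
Tfdp2: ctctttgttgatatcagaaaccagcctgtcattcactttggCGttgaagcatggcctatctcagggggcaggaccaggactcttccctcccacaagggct
A3galt2: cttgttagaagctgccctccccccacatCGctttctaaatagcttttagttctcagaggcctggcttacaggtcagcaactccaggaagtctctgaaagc
Fam24b: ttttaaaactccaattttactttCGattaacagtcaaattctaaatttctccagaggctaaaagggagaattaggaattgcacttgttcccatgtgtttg
Hdac9: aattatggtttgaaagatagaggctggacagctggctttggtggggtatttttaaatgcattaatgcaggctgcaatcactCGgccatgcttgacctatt

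The Mt4 window, chr8:94137101-94137200 on the plus strand, lay just upstream of the annotated start of this metallothionein gene and held 0 knockout and 32 wildtype counts on 2 CpGs. Rgs19, a regulator of G protein signalling, had 0 knockout and 23 wildtype counts in chr2:181691901-181692000 on the minus strand. The window of Tfdp2, a dimerisation partner of E2F transcription factors, was chr9:96258601-96258700 on the plus strand, with 0 knockout and 21 wildtype counts. A3galt2, a galactosyltransferase gene, had 0 knockout and 19 wildtype counts in chr4:128759201-128759300, a plus-strand window that spans the annotated start. The windows of Fam24b, chr7:131329601-131329700, and of the histone deacetylase gene Hdac9, chr12:34529001-34529100, are both on the minus strand. They held 0 knockout counts each, with 18 wildtype counts for Fam24b and 15 for Hdac9. Those of Rgs19, Tfdp2, Fam24b and Hdac9 lay inside the gene span, at a start site within the gene.

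The same rule with the libraries exchanged gave 16779 wildtype-empty windows, with 0 wildtype and at least 10 knockout counts, which serve as the comparison throughout. The 4 with the highest knockout counts by the same choice are set beside the sequences above.

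Igfbp6: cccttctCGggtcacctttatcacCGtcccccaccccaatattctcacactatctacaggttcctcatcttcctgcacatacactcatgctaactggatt
Coq10a: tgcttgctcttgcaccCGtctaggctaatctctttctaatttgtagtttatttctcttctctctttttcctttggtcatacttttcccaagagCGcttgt
Tulp1: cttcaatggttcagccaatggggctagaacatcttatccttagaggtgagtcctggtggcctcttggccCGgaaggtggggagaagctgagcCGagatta
Pdcd1: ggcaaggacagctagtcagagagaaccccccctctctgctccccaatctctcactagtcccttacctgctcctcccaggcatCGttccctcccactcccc

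These held 50 knockout counts for Igfbp6 (chr15:102144101-102144200, plus strand), 44 for Coq10a (chr10:128370001-128370100, minus strand), 44 for Tulp1 (chr17:28365201-28365300, minus strand) and 39 for Pdcd1 (chr1:94052701-94052800, minus strand), against 0 wildtype counts each. Over all 7877 listed windows that lie wholly within a RefSeq promoter, the CpGs counted in the sequence equalled the deposited CpG count in 97.1%, and were within 1 of it in 100%. Among the windows of 1 or 2 CpGs in promoters, the median GC content was 47.5% in 44 knockout-empty windows and 50.5% in 188 wildtype-empty ones. It was 49% in 1743 other windows lower in the knockout library, and the quartiles of the 44, 42.3% and 53%, overlap those of each other class.

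Windows without a knockout read became rarer with each added CpG. Of the autosomal windows with 1 or 2 CpGs and at least 10 wildtype counts, 2.29% had no knockout read, a share fixed by the rule and by what the table lists. Windows with 0 knockout counts and at least 10 wildtype counts numbered 22856 with 1 CpG, 11197 with 2, 1930 with 3, 101 with 4 and 7 with 5 or more. Among windows with at least 10 wildtype counts this was 2.72% with 1 CpG, 1.73% with 2, 0.543% with 3 and 0.0037% with 5 or more. Wildtype-empty windows had no such slope. They made up 1.46% of windows with 1 or 2 CpGs and at least 10 knockout counts, and the share lay between 1.43% and 1.53% for each class from 1 to 4 CpGs and at 2.14% with 5 or more. For each wildtype-empty window there were thus 2.55 knockout-empty ones with 1 CpG, 1.43 with 2, 0.363 with 3 and 0.0015 with 5 or more. Listed autosomal windows of any count also shifted with their CpGs. The knockout level was below the wildtype level in 57.6% of those with 1 or 2 CpGs and 1.10% of those with 5 or more. The log2 of knockout over wildtype was 0.0092 and 0.72 in these classes. The part of this shift in the slope, and in the contrast with wildtype-empty windows, was not tested.

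**Figure D1:**
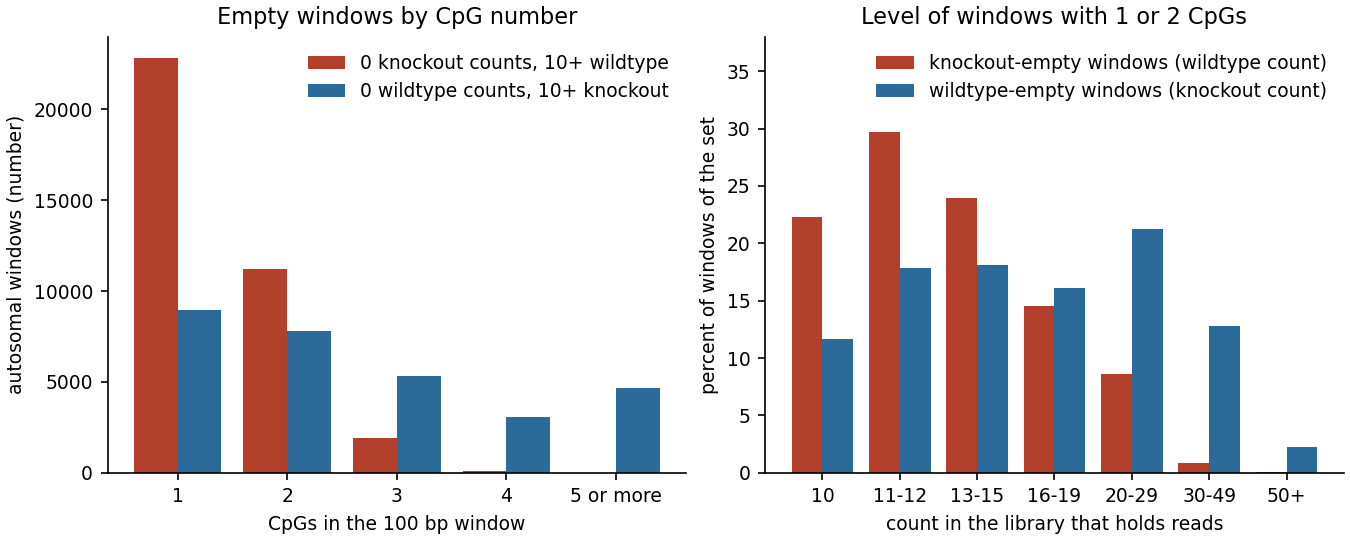
Left, number of autosomal windows empty in one library and holding 10 or more counts in the other, by CpGs per 100 bp window. Right, the count in the library that holds reads, as percent of windows with 1 or 2 CpGs. Knockout-empty windows fall from 22856 with 1 CpG to 7 with 5 or more, and 52.0% of those with 1 or 2 CpGs have 10 to 12 wildtype counts.

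The wildtype level of knockout-empty windows was low and close to the limit of the rule. Their wildtype count had a median of 12, with quartiles of 11 and 15 and a highest value of 71, against a knockout count of 0 throughout. In the RPKM of the authors the wildtype median was 1.37, and the range was 1.14 to 8.09. All listed windows with 1 CpG had a wildtype median of 29 counts, and those with 2 CpGs of 38. Exactly 10 wildtype counts were found in 7599 of the 34053 windows (22.3%), 20 or more in 3241 (9.52%), 30 or more in 307 and 50 or more in 12. Wildtype-empty windows were the fuller kind, with a median of 16 knockout counts, and 36.2% of them had 20 or more. With the knockout count set to a floor of 3 per window, the bound on the fold was 4.49 at the wildtype median. It was 3.75 at 10 wildtype counts and 26.6 at 71. This bound takes the wildtype count as exact and uses the counts by which windows were chosen. It describes these libraries and is no estimate of a smallest true difference.

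The limits of the rule cut through a continuous range. Just outside it lay 39545 windows with 1 knockout count, whose wildtype median was 13, and 2038 windows with 0 knockout counts and 3 or more CpGs. No listed autosomal window of 1 or 2 CpGs with 0 knockout counts had fewer than 10 wildtype counts, so that limit is also the edge of the table. The p-value the authors gave was at most 0.00196 in knockout-empty windows, while over all listed windows it reached 0.05. The authors' relative methylation score of the wildtype library had a median of 0.166 in knockout-empty windows with 1 CpG and of 0.401 in all listed windows with 1 CpG. With 2 CpGs the medians were 0.0635 in knockout-empty windows and 0.186 in all listed ones, and the scale of this score is not stated.

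Knockout-empty windows joined into 22429 runs of adjacent windows. Single windows made up 15165 runs (67.6%), 4162 runs had 2 windows, 2057 had 3 and 858 had 4. Runs of 3 or more windows were 13.8% of knockout-empty runs and 6.89% of the 12223 wildtype-empty ones, and runs of 4 or more were 4.66% and 1.82%. The CpG limit cut the 2 sets unequally, since 1224 of the 10611 listed windows at the edges of knockout-empty runs were themselves empty in the knockout library, and 6945 of 12394 at wildtype-empty runs were empty in the wildtype library. The part of this in the run lengths was not tested. The longest knockout-empty runs, 2 in number, spanned 700 bp, and 187 runs spanned at least 500 bp. Longer runs were also fuller, with a mean of 12.6 wildtype counts per window in single windows, 14.6 in runs of 3, 15.8 in runs of 4 and 17.9 in runs of 5. Wildtype-empty runs stayed between 18.8 and 21.6 knockout counts per window up to a length of 6. Captured fragments were sheared to 200 to 400 bp, so the windows of 1 run share reads and a run, not a window, is the nearer thing to a separate place.

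**Figure D2:**
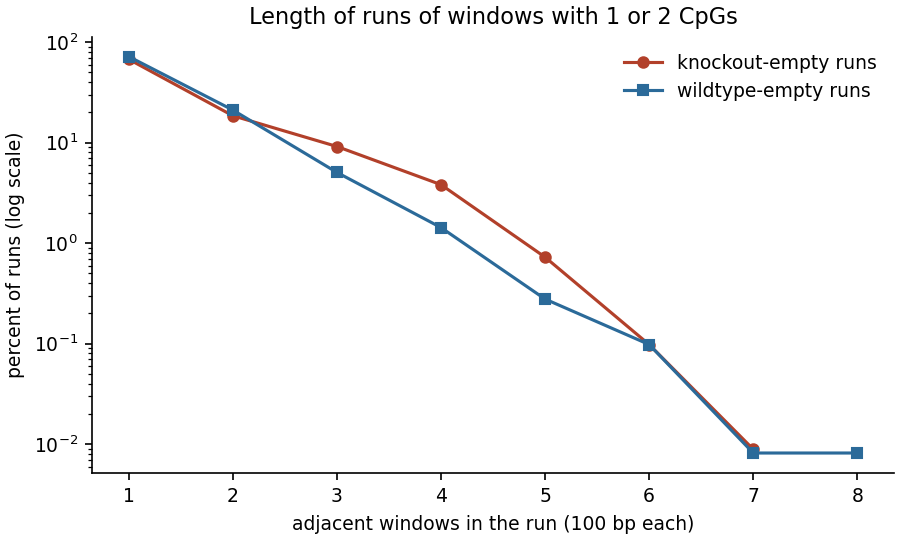
Percent of runs, on a log scale, by the number of adjacent 100 bp windows in the run. Knockout-empty runs of 4 windows are 3.83% of 22429 runs and wildtype-empty runs of 4 windows are 1.43% of 12223.

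Most runs ended where the table listed nothing. Of 44858 run edges, 34247 (76.3%) met a window that is not listed, which can hold no CpG, too few counts or too small a difference. Of the 10611 listed windows at the other edges, 77.6% had 1 to 3 knockout counts, with a median of 1 knockout and 16 wildtype counts, and 0 were higher in the knockout library. At wildtype-empty runs 49.3% of edges met an unlisted window, and 8966 of the 12394 listed ones had 3 or more CpGs. Consecutive knockout-empty runs lay a median of 65.5 kb apart, and 13.5% were within 1 kb of another, against 37.9% of wildtype-empty runs.

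The longest runs had a domed wildtype profile over an empty knockout track. Adjacent windows share reads and the rule ends a run below 10 wildtype counts, so nothing is read from this shape. In the zinc finger gene Zfp28, from 6390801 to 6391500 of chromosome 7, all 7 windows had 0 knockout counts, and the wildtype counts were 24, 34, 32, 24, 21, 12 and 10. The other run of 7 windows, from 112241101 to 112241800 of chromosome 12, lay in the long noncoding RNA gene Gm36894 and held 0 knockout and 107 wildtype counts. Inside Nrg1, which encodes the growth factor neuregulin 1, a run of 6 windows from 32700601 to 32701200 of chromosome 8 had 0 knockout counts in each window and wildtype counts of 19, 33, 37, 40, 31 and 17. With windows summed to fragments and a floor of 3 knockout fragments, the bound on the fold was 14.7 for Zfp28, 10.02 for Gm36894 and 16.6 for Nrg1. It has the same limits as the bound for single windows. Other runs of 6 windows lay in Nrxn2, a presynaptic neurexin gene, with 0 knockout and 129 wildtype counts, and in Stt3b, a subunit gene of oligosaccharyltransferase, with 0 and 119. A run in the T cell receptor beta locus Tcrb held 0 knockout and 127 wildtype counts. The other listed windows within 1 kb of these runs were not always low in the knockout library. The 4 around the Zfp28 run held 358 knockout and 224 wildtype counts, and the 4 around the Nrxn2 run 539 and 331. The 1 beside the Gm36894 run held 1 knockout and 12 wildtype counts. The runs in Nrg1, Stt3b and Tcrb had 0 such windows.

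Of the 10 longest runs, 4 lay between genes. One, from 32404401 to 32405000 of chromosome 14, was 3.20 kb from Chat, the gene of choline acetyltransferase, with 0 knockout and 141 wildtype counts. Another lay 81.1 kb from Nog, which encodes the BMP antagonist noggin, on chromosome 11 from 89218901 to 89219500, with 0 knockout and 137 wildtype counts. Distances are to protein-coding genes. The remaining ones lay between Boc and Nepro on chromosome 16, 34.6 kb from Nepro, with 0 knockout and 121 wildtype counts, and between Tab2 and Ust on chromosome 10, 92.0 kb from Tab2, with 0 and 115. No listed window other than their own lay within 1 kb of any of these 4 runs.

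**Figure D3:**
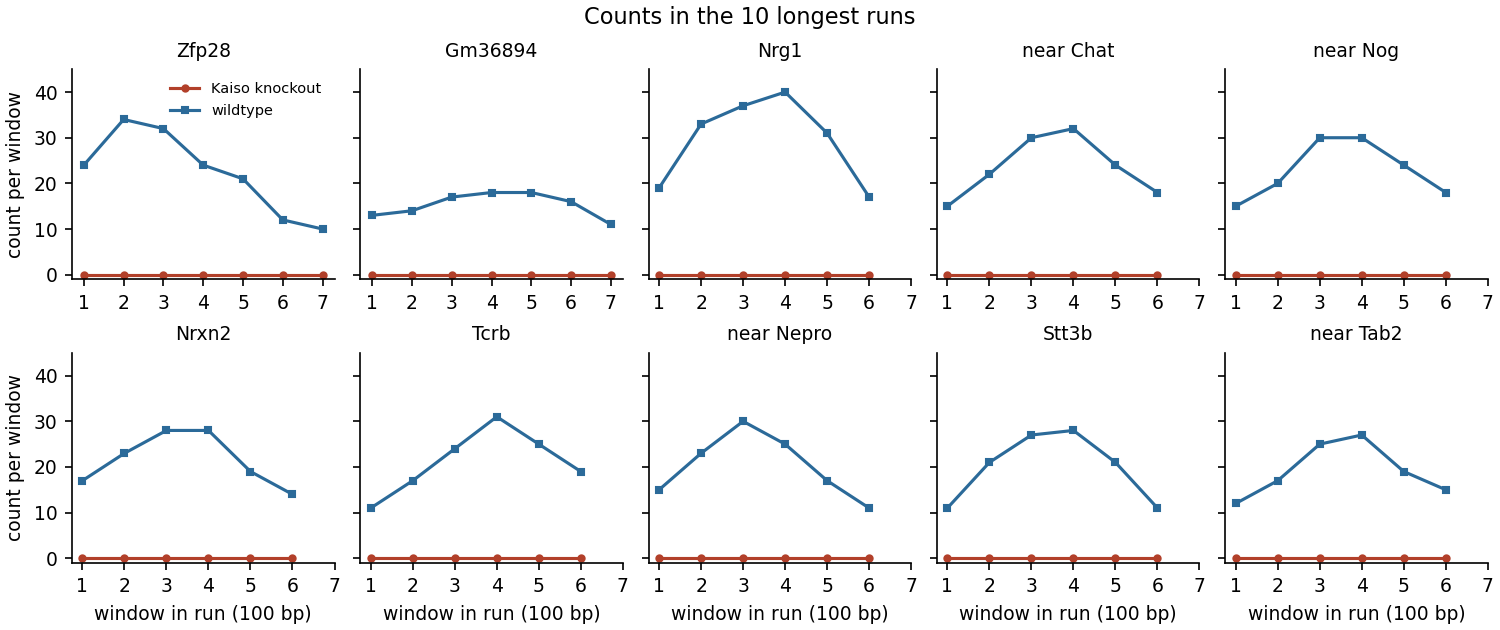
Counts per 100 bp window in the Kaiso knockout and wildtype libraries along the 10 longest knockout-empty runs, titled by the gene they lie in or the nearest gene. The wildtype count of the Nrg1 run peaks at 40 and that of the Gm36894 run at 18, while the knockout count is 0 in every window.

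The windows beside the runs were low in the knockout library as well, and the difference became smaller with distance. Adjacent listed windows had 18560 knockout and 181199 wildtype counts, a log2 ratio of knockout over wildtype of -3.46. Beyond 300 and up to 500 bp the log2 ratio was -0.61, with medians of 13 knockout and 32 wildtype counts. It was -0.0050 beyond 500 and up to 1000 bp, 0.19 at 1 to 3 kb and 0.24 at 3 to 10 kb, against 0.27 over all listed autosomal windows, so it was still below that level beyond 1 kb. A knockout level at least 2-fold lower was found in 72.5% of listed windows in the class up to 500 bp in 51.2% in the class up to 1000 bp and in 42.1% at 1 to 3 kb, against a background of 38.3% of all listed autosomal windows. Among neighbours with 1 or 2 CpGs it was 78.4% and 62.6% at these distances, against a background of 51.1%. Windows up to 400 bp away can share fragments with a run, and the split at 500 bp was chosen after the data had been seen.

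CpG-dense neighbours were low in the knockout library within 300 bp of a run and mostly higher there beyond it. Listed windows with 5 or more CpGs had a log2 ratio of -5.21 (-10.2 to -2.20) beside a run, on 5 windows with 3 knockout and 99 wildtype counts. At 100 to 300 bp it was -0.91 (-1.27 to -0.54), on 19 windows. Windows this close can share fragments with a run, which was chosen for 0 knockout reads. Beyond 300 and up to 500 bp, 163 such windows had a log2 ratio of 0.51, and beyond 500 and up to 1000 bp 1088 had 0.64, with medians of 118 knockout and 70 wildtype counts in the farther class. All listed windows with 5 or more CpGs had a log2 ratio of 0.72. A knockout level at least 2-fold lower was found in 8.59% of the 163 and 2.30% of the 1088, both above the background of 0.592% of all such windows. Such neighbours were rare, since 3.49% of knockout-empty windows had a listed window of 5 or more CpGs within 1 kb, against 50.04% of wildtype-empty windows and 26.9% of all listed windows with 1 or 2 CpGs. Among other windows lower in the knockout library, with 10 to 15 wildtype counts, the share was 5.77% (exact 95% interval 5.65 to 5.89%), above the interval of 3.30 to 3.69% for knockout-empty windows. These intervals treat windows as independent and cover counting error only.

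**Figure D4:**
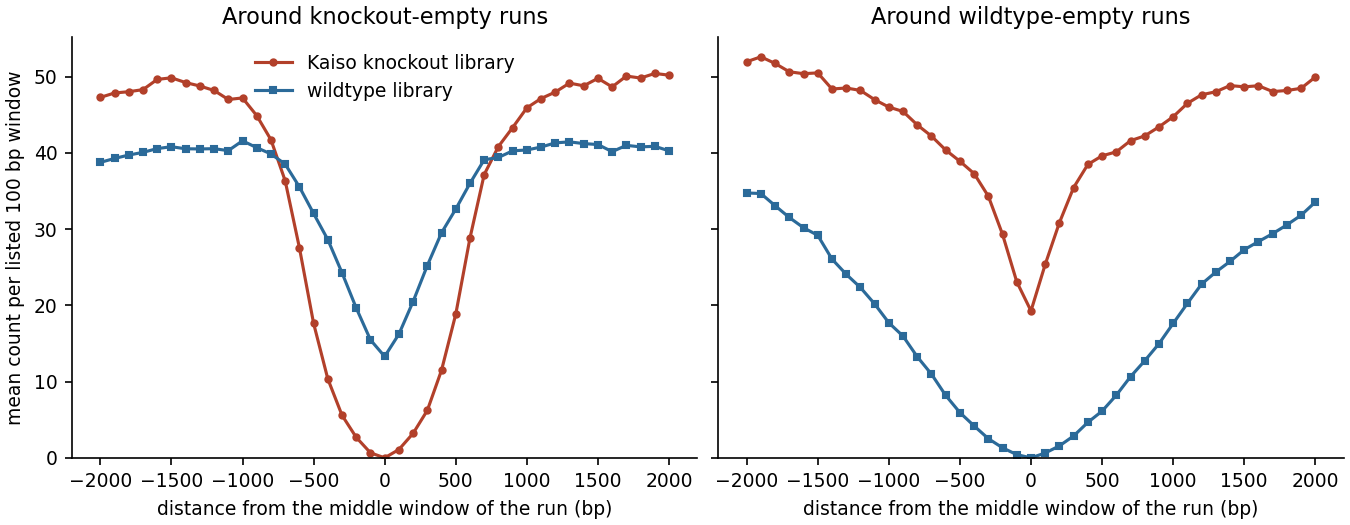
Mean count per listed 100 bp window in the Kaiso knockout and wildtype libraries, by distance from the middle window of a run. Around knockout-empty runs the knockout mean is 0 at the middle and 50.2 at 2000 bp to the right, and the wildtype mean 13.3 and 40.3; the middle values are set by the rule.

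A little over 50% of knockout-empty windows lay in a gene. Inside the span of any annotated gene were 17952 of 34053 (52.7%), inside a protein-coding gene 14790 (43.4%), inside only a long noncoding RNA gene 2769 (8.13%), and between genes 16101 (47.3%). Counted by runs, 53.2% were inside a gene (exact interval 52.6 to 53.9%, n = 22429 runs). Among all listed windows with 1 or 2 CpGs 58.5% were inside a gene, and among wildtype-empty windows 49.5%. The difference from all listed windows was nearly gone at a like wildtype level, since windows with 10 to 15 wildtype counts and at least 1 knockout count were inside a gene in 52.9% of 179414 cases. Those of them lower in the knockout library were inside a gene in 54.0% (53.7 to 54.3%). The share hardly moved with the wildtype count, at 52.7% for 10 to 12 counts, 53.8% for 20 to 29 and 53.1% for 30 or more.

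Gene starts were seldom close to a knockout-empty window. Off chromosome 18, whose gene starts were not used here, 1.74% of 32737 knockout-empty windows lay within 1 kb of a RefSeq gene start, and 29.02% were over 100 kb from one. Wildtype-empty windows lay within 1 kb of a start in 17.4% of 16250 cases, and all listed windows with 1 or 2 CpGs in 2.86%. For lower windows with 10 to 15 wildtype counts the share was 1.59%, close to that of the knockout-empty ones. Median distances were 43.1 kb for knockout-empty windows, 16.1 kb for wildtype-empty ones, 37.7 kb for the lower windows of a like wildtype count and 29.3 kb for all listed ones. Promoters, taken as 250 bases before to 50 after a start, were touched by 94 knockout-empty windows (0.287%, interval 0.232 to 0.351%) and by 410 wildtype-empty ones (2.52%, 2.29 to 2.78%). The share was 0.270% for lower windows with 10 to 15 wildtype counts, inside the interval of the knockout-empty ones, and 0.546% for all listed windows with 1 or 2 CpGs.

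**Figure D5:**
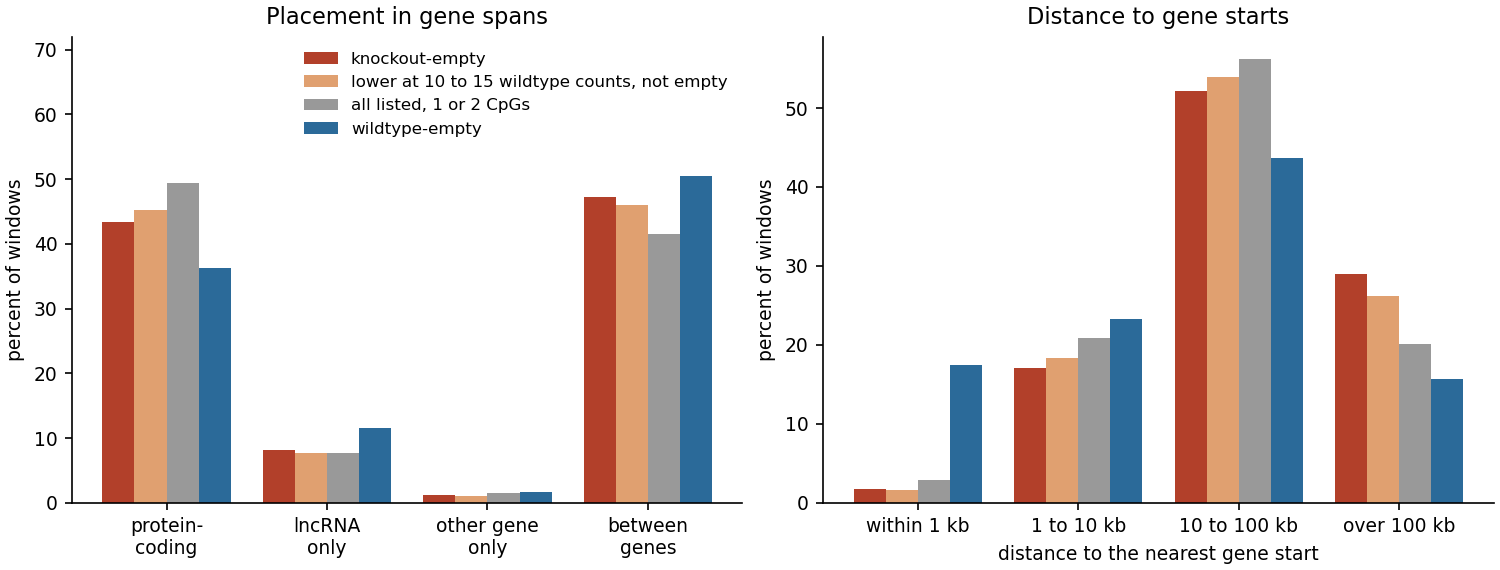
Percent of windows by placement in gene spans (left) and by distance to the nearest RefSeq gene start (right). Knockout-empty windows stand beside lower windows of a like wildtype count, all listed windows with 1 or 2 CpGs, and wildtype-empty windows; within 1 kb of a start the shares are 1.74%, 1.59%, 2.86% and 17.4%.

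The promoters touched were CpG-poor throughout. The 77 promoters touched by a knockout-empty window, of 66 genes, held a median of 3 CpGs in 300 bases (quartiles 2 and 3). The 336 promoters touched by a wildtype-empty window held a median of 8, those touched by any listed window with 1 or 2 CpGs 5, and all 31365 promoters 7. Both Kaiso motifs were searched on both strands, with any overlap. TCCTGCNA was present in 5 of the 77 promoters (6.49%), in 6.85% of those touched by a wildtype-empty window, in 5.63% of those touched by any listed window with 1 or 2 CpGs and in 4.98% of all promoters. CGCG was present in 1 of the 77 (1.30%), in 27.4% of those touched by a wildtype-empty window, in 12.9% of those touched by any such listed window and in 38.5% of all promoters. Promoters of close start sites overlap, as those of Mup-ps16 and of Prl7d1 do among the 77, so nearly the same sequence can count repeatedly. A match to these letters is not a binding site, and the windows were chosen for having 1 or 2 CpGs. Fam24b had 4 knockout-empty windows over its promoter, with 0 knockout and 59 wildtype counts, and Rgs19, Hdac9 and the serine protease inhibitor gene Serpina3g had 3 each.

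Of 18263 protein-coding autosomal genes with a listed window of 1 or 2 CpGs, 4699 (25.7%) held a knockout-empty window. A single one was found in 1854 genes, 5 or more in 873 and 10 or more in 240. The share of genes holding one rose with gene length. Genes with one had a median length of 75.5 kb, and genes without one 15.1 kb. Of genes of 200 kb or longer 95.1% of 945 held at least one, against 4.34% of 5135 genes under 10 kb. Per length the longest class had 16.9 knockout-empty windows per Mb and the shortest 13.3. Per 1000 windows of 1 or 2 CpGs with at least 10 wildtype counts the longest class had 26.1 and the shortest 13.3. Other lower windows with 10 to 15 wildtype counts also rose, from 55.8 per Mb in the shortest class to 65.7 in the longest. Per such lower window there were 0.238 knockout-empty ones in the shortest class and 0.257 in the longest, with 0.217 and 0.224 between. At a like wildtype level the classes thus differed little. Wildtype-empty windows ran the other way, at 4.28 per Mb in the longest genes and 28.7 in the shortest.

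The 20 genes with the most knockout-empty windows were all long, from 579 to 2271 kb. Fhit, a diadenosine hydrolase gene at a fragile site, held 46 in 1612 kb, in 23 runs with up to 22 wildtype counts per window. Auts2, a regulator of neuronal development, held 44, Lsamp, an adhesion protein of the limbic system, 42, and Ctnnd2, the neuronal delta-catenin gene, 39. Ank2, the gene of the membrane scaffold ankyrin B, held 39 in 579 kb, with a longest run of 6 windows. Next came Robo2, the Slit receptor, with 38, Macrod2, an ADP-ribose hydrolase gene, with 37, and Dcc, the netrin receptor, with 36. The adhesion genes Cadm2 and Opcml and the receptor phosphatase gene Ptprd held 33 each. The neurexin gene Nrxn3 and its relative Cntnap2 held 31 each, the splicing regulator gene Rbfox1 and the teneurin gene Tenm2 30 each, and the RNA-binding protein gene Rbms3 and the scaffold gene Magi2 29 each. Negr1, a neuronal adhesion gene, held 31 among its 297 windows of 1 or 2 CpGs with at least 10 wildtype counts. That is 104 per 1000, the highest of the 20 genes, and the lowest was 28.1 in Tenm2, against 26.1 over all genes of 200 kb or longer and 19.6 over all protein-coding genes. The 20 were picked for their number of such windows, so nothing is read from these rates. Spag16, which encodes a protein of the sperm tail axoneme, was the germ cell gene among the 20 genes with most, with 29 in 14 runs. Dpp6, an auxiliary subunit gene of potassium channels, held 27.

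Away from the runs these genes were far from empty in the knockout library. Over listed windows more than 500 bp from any run, the log2 of knockout over wildtype was 0.053 (exact 95% interval 0.0072 to 0.098) for Fhit, 0.073 (0.045 to 0.102) for Auts2 and -0.041 (-0.081 to -0.0012) for Ctnnd2. It ranged from -0.46 in Dpp6 to 0.33 in Ank2 among the 20. The median was 0.19 over 4621 genes with a knockout-empty window, 0.097 over 872 genes with 5 or more and 0.039 over 240 with 10 or more, against 0.31 over all 17856 genes and 0.37 over genes with none. These genes had at least 20 fragments in such other windows. Of the 4621, 111 (2.40%) had a knockout level at least 2-fold lower there, against a background of 5.26% of 17856 genes. At least 2-fold higher were 109 (2.36%), against a background of 8.99%. Genes with 5 or more knockout-empty windows were at least 2-fold lower in 0 of 872 cases. Longer genes sum more windows, which narrows the spread of their ratios, and the part of length in these counts was not tested. The ratio also differs by the CpGs of a window, and these other windows were not matched for CpGs between the gene classes. The part of this in the medians was not tested.

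Some short genes had no knockout count in a large share of their windows of 1 or 2 CpGs with at least 10 wildtype counts. All were picked for their knockout-empty windows per 10 kb, so nothing is read from these shares. In each one named here except Kcnj8, which had 3 runs, the knockout-empty windows formed 1 run and so share reads. The olfactory receptor gene Olfr1101, on chromosome 2 from 86988242 to 86989174, had 4 listed windows with at least 10 wildtype counts, and all 4 had no knockout count, with 69 wildtype counts in sum. The same held for 3 of 3 windows in Otor, an inner ear gene, and 4 of 4 in Fam24b. H2-Aa, a class II MHC gene, had 4 of 5, Gstm2, a glutathione transferase gene, 4 of 7 and Tmem270 4 of 7. Lcn11, a lipocalin gene, had 4 of 8, and Ifi44l, an interferon-induced gene, 3 of 5. Genes of such families have close copies, and reads may be shared between them, since the handling of multiple alignments is not stated. Kcnj8, a potassium channel gene, and Ebi3, a cytokine subunit gene, combined both directions. Kcnj8 held 5 knockout-empty windows of 12, while its 18 other windows beyond 500 bp of the runs had 1009 knockout and 120 wildtype counts, a log2 ratio of 2.90 (2.35 to 3.5). In Ebi3 there were 4 of 7, while 16 windows of 1 or 2 CpGs were listed at any wildtype count. Its 26 other windows had 895 knockout and 246 wildtype counts, a log2 ratio of 1.70 (1.27 to 2.12). Other windows were also higher in Lcn11 (log2 ratio 0.38), Tmem270 (0.43), H2-Aa (0.45) and Ifi44l (1.33), each with an interval that spans 0. They were lower in Gstm2, at -1.03 (-1.81 to -0.31).

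Gene families were read against all protein-coding genes, of which 25.7% held a knockout-empty window, with 19.6 per 1000 windows of 1 or 2 CpGs and at least 10 wildtype counts. All 21 genes of a list of very long genes, most of them known from synapses and cell adhesion, held at least one, 520 in all or 42.7 per 1000. That list has a median length of 1485 kb and includes Fhit, Macrod2 and Wwox, with 46, 37 and 10, which are no adhesion genes. Genes of 200 kb or longer had 26.1 per 1000. Within the list the rate varied widely, from 10 of 1266 such windows in Wwox and 13 of 706 in Robo1 to 18 of 153 in Cntnap5a. The list was chosen with earlier results known and shares genes with the 20 above, so nothing is read from its pooled rate. Receptor phosphatases held one in 16 of 21 genes (30.2 per 1000), cadherins in 16 of 23 (26.5) and potassium channels in 33 of 92 (29.9). Protocadherins held one in 42 of 67 genes (40.4 per 1000), with sums over genes of 156 knockout-empty and 269 wildtype-empty windows. Such sums count a window once for each gene it touches, so windows in overlapping gene spans are repeated. Over all protein-coding genes the sum was 15075, for 14790 separate knockout-empty windows. The part of such repeats in the values of each family and length class was not tested.

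The share of genes and the rate per window gave different orders. Olfactory receptors, with a median length of 0.957 kb, held one in 17 of 372 genes but had 25.2 per 1000 windows, and vomeronasal receptors in 14 of 93, with 28.1 per 1000. Zinc finger genes of the Zfp series had one in 77 of 377 (20.9 per 1000), solute carriers in 108 of 372 (18.0) and Adam proteases in 10 of 32 (20.5), all near the level of all genes. Keratins had one in 2 of 52 genes (5.78 per 1000). Hox genes held 0 knockout-empty windows in 32 genes with 83 windows at 10 or more wildtype counts, and 71 wildtype-empty ones, while Rhox genes lie on X.

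Among 20 germline genes 4 (20%) held knockout-empty windows, with 15.8 per 1000, close to the 25.7% and 19.6 per 1000 of all genes. Piwil2, a Piwi protein of the piRNA pathway, had 4, Ddx4, the germ cell RNA helicase, 3 in 1 run, Tdrd5 2 and Piwil4 1. The meiotic genes Sycp1, Sycp2, Sycp3, Hormad1, Stag3 and Rec8 had 0, on 1 to 21 windows with at least 10 wildtype counts each. Every other germline gene of the list also had 0, among them Hormad2 on 68 such windows, Tdrd1 on 72 and Tdrd9 on 106. A value of 0 was thus not particular to the meiotic genes. Of 8 methyl-CpG reader genes, 6 lie on autosomes. Zbtb4, Zbtb38, Mbd1, Mbd2, Mbd3 and Mbd4 held 0 knockout-empty windows among 187, beside the 19.6 per 1000 of all genes.

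Knockout-empty windows were spread over all autosomes. Chromosome 16 had the most, 26.9 per 1000 windows of 1 or 2 CpGs with at least 10 wildtype counts, and chromosome 17 the fewest, 17.7, with a median of 22.4. The median wildtype count per chromosome was 12 on 18 of the 19 and 12.5 on chromosome 12. Of 2412 stretches of 1 Mb, 10 held none, and the median was 13 per stretch with quartiles of 9 and 18. A single stretch stood far above the others, from 66000001 to 67000000 of chromosome 13, with 101, and the next held 49.

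The fullest windows came from that place. In a block of 600 kb of chromosome 13, from Gm46425 to 2410141K09Rik and chosen after its values had been seen, 86 of 674 windows with at least 10 wildtype counts (12.8%) were knockout-empty, against the 2.29% over all autosomes. It held 10 of the 12 knockout-empty windows with 50 or more wildtype counts, among them 4 adjacent windows from 66173201 to 66173600 with 0 knockout counts each and 61, 67, 71 and 55 wildtype counts, in the pseudogene Gm17514. The other runs of the block with such windows peaked at 63, 59, 57 and 55 wildtype counts, with 0 knockout counts. Of its 683 listed windows with 1 or 2 CpGs, 97.2% were lower in the knockout library, against 57.6% of all listed autosomal windows with 1 or 2 CpGs. The other windows with 50 or more were a pair in Padi2, a peptidylarginine deiminase gene on chromosome 4 from 140920101 to 140920300, with 0 knockout counts each and 64 and 51 wildtype counts. Outside both places the highest knockout-empty windows were in runs with up to 46 wildtype counts, from 65512001 to 65512300 of chromosome 10, and 45 in Lmo1, a LIM domain gene, in Dgki, a diacylglycerol kinase gene, and in a run from 127147401 to 127147700 of chromosome 2, 3.94 kb from Itpripl1.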

How the data were processed

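Bowtie2 2.2.6, edgeR and mm10 were named in the submitters' processing notes, and the columns have the layout of MEDIPS output, per the file headers, which do not name that tool. The deposited counts are whole reads per 100 bp window, and a read counts in more than 1 window, since they sum to 145566310 for 98549116 knockout reads. The RPKM of the authors scales that count by window length and library reads, which gave the library sizes. The deposited relative methylation score has no stated scale. The p-value of the authors compares the 2 libraries, and the authors' log2 fold change runs wildtype over knockout and was not used for values. Another 10 columns of values per sample or group were not used here. Read extension, duplicates and multiple alignments are not given in the sources used here.

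Windows were selected by the stated rule and adjacent ones joined with no gap. Log2 ratios are knockout over wildtype per library reads. Sums over windows were divided by 4 to approximate fragments. Intervals are exact Clopper-Pearson 95% intervals which cover only counting error, since reads copied by PCR do not count separate molecules. A region of 0 counts was set to a floor of 3 counts in a window or 3 fragments in a run. Gene spans and 250 bases before to 50 after gene starts came from RefSeq, GRCm38.p6. Placement was by at least 1 shared base. The design planned no test, since 1 library per genotype allows none. Genes were named by a rule: the 10 longest runs, the 10 runs with the fullest windows, the 20 protein-coding genes with most such windows, the 10 with most per 10 kb among those with 3 or more (predicted and Riken symbols left out of both), and the 5 longest runs between genes, of which 1 is not reported here. The windows, lists and rule were chosen with earlier results of these data known. The scripts were tested on simulated data. Python 3.11.15, pandas 2.3.3, scipy 1.17.1 and, for TMM, edgeR 4.0.16 were used.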

Additional observations from a re-analysis of the deposited data

How the results depend on the processing

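The number of knockout-empty windows rests on the thresholds. A wildtype minimum of 15 left 10247 and one of 20 left 3241, a knockout count of 0 or 1 gave 73598 windows in 52109 runs, and windows of 2 CpGs alone were 11197. The median wildtype count was 18 with a minimum of 15 and 13 with 2 CpGs. The share of runs inside a gene was 44.0% with protein-coding genes only, 62.8% with 5 kb added on each side of each gene and 54.0% with a minimum of 20. The log2 ratio over all listed windows within 1 kb of the runs was -0.669. It was -0.94 when scaled by the counts of the file on the autosomes and -0.062 within 3 kb. Without the block of chromosome 13, an alternative chosen after seeing the data, it was -0.659. Of genes with a knockout-empty window, 1.75% were 2-fold lower with a minimum of 50 fragments, against 3.37% of all genes, and 3.27% with the counts of the file, against 6.98%. The other 16 of 31 alternatives stayed within 1.5 times the count or within the interval of the value, and 0 reversed a direction. The fold bound at the median was 5.43 with the counts of the file and 5.02 with TMM. Why values moved was not tested beyond what each alternative itself changes. No paired analysis was possible because each genotype has 1 library. Most windows have 10 to 15 counts, so depth limits what a count of 0 shows, and a window absent from the table was not shown to be unchanged.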

Other observations

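The sex chromosomes were outside the rule. On X, 1521 windows with 1 or 2 CpGs had 0 knockout and at least 10 wildtype counts, in 953 runs, which is 54.9 per 1000 windows with at least 10 wildtype counts, against 17.7 to 26.9 on the autosomes. With the libraries exchanged X had 861, so both kinds were frequent there, and the ratio of 1.77 lay within the autosomal range of 1.41 to 2.49. The listed windows of X had a wildtype median of 17 counts, against 30 to 35 on the autosomes, so more of them lie in the range where knockout-empty windows are found, and the part of this in the difference was not tested. On Y there were 166 (28.6 per 1000) and, with the libraries exchanged, 214. The mitochondrial genome had 0 among its 21 listed windows of 1 or 2 CpGs.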
